A study of Mus musculus with 6 samples.

Results

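Muscle atrophy ubiquitin ligases are the enzymes best known for marking muscle proteins for the proteasome while a muscle wastes. Rows of the deposited gene table were taken by symbol for 10 such ligases, and 9 of the 10 were analysed out of 23314 genes: Fbxo32, Trim63, Trim54, Trim55, Fbxo21, Fbxo30, Fbxo40, Nedd4 and Traf6. Fbxo31 was not analysed here. All 9 passed a filter of a mean of at least 1 FPKM over the libraries, as did 11607 genes. FPKM is a transcript level scaled by the transcript's length and by the mapped fragments of its library.

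RNA was sequenced from the quadriceps, a thigh muscle, of mice aged 2 months. The control group, MyoCre, had the genotype Myogenin-Cre/+, and the knockout group, K15SKO, had Myogenin-Cre/+;K15F/F, so that both groups carried Cre and the groups differ in the floxed Klf15 alleles. Myogenin drives the Cre in differentiating muscle cells, so other cells of the tissue can keep Klf15. Each group held 3 libraries; the design text gives n = 4. The labels do not tie each library to an animal of its own, and the p-values here therefore rest on the spread among these samples, part of which may be technical.

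Ubiquitin is passed from an activating enzyme (E1) to a conjugating enzyme (E2), and a ligase (E3) then brings it to a chosen substrate. F-box proteins such as Fbxo32 are the substrate receptors of SCF ligases, which are built on Skp1, the scaffold cullin 1 and the RING protein Rbx1. RING ligases such as Trim63 bind the E2 directly, and HECT ligases such as Nedd4 first take ubiquitin onto a cysteine of their own. In muscle, Fbxo32 and Trim63 are induced by fasting, disuse and glucocorticoids through FoxO factors and the glucocorticoid receptor, and Klf15, a zinc-finger factor that glucocorticoids induce, is known to act on both genes in cultured muscle cells.

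The sequences of the ligases were set out first because the 3 MuRF genes are close relatives whose reads could be confused, and because Trim63 and Trim54 differed in their levels. Coding sequences from GENCODE M21 were 70.5% identical between Trim63 and Trim54, 67.6% between Trim63 and Trim55 and 66.3% between Trim54 and Trim55, over aligned bases. The longest run of identical bases was 28 between the Trim63 and Trim54 transcripts, and 21 or fewer in the other pairs of the 9 ligases. The stretch of 60 coding bases most alike in the 3 genes shares 51 bases, printed in capitals; it starts at coding base 262 of Trim63 and 271 of Trim54 and Trim55.
Trim63: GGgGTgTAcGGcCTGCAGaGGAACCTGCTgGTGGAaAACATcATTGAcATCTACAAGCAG
Trim54: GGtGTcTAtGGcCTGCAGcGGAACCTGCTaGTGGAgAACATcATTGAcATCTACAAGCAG
Trim55: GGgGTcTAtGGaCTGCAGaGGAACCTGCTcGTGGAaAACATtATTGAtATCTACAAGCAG

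Promoter windows from RefSeq, on GRCm38.p6, run from 250 bases before to 50 after a gene's start, and 7 of the 9 ligases had an entry, with 9 windows in all. Fbxo32 and Trim55 had none. The windows of Trim63, Trim54 and the upstream start of Fbxo40 are shown, because these are the 3 ligases with the highest MyoCre means, and they stood differently in K15SKO. They lie at chr4:134314870-134315169 (plus strand, Trim63), chr5:31116362-31116661 (plus strand, Trim54) and chr16:36990418-36990717 (minus strand, Fbxo40). Capitals mark matches, on either strand, to TGTTTAC (a FoxO element), AGAACA (an arm of the glucocorticoid receptor palindrome) and CCACCC (a box that Krüppel-like factors can bind).
Trim63: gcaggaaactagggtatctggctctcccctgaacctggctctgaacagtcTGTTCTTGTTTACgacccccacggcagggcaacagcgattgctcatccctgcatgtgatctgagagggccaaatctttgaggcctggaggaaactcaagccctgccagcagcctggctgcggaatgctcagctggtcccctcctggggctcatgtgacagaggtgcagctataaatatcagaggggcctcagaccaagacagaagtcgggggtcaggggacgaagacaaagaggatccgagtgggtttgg
Trim54: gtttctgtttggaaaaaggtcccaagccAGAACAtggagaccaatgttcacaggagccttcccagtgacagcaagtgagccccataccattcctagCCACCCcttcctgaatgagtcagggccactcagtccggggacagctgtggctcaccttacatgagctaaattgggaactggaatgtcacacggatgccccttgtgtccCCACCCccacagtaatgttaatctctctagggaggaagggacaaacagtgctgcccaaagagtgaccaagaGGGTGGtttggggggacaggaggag
Fbxo40: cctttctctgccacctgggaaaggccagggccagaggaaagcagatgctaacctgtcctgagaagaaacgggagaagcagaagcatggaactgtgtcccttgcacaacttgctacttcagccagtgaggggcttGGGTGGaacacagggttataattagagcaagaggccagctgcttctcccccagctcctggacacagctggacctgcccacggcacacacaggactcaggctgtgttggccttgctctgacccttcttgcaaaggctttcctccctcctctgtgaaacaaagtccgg

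The FoxO element was found in the Trim63 window alone among the 9 windows of these ligases, and in 3.65% of 32851 promoter windows of the same length. In Trim63 it directly follows the AGAACA match, read on the other strand, with no overlap. AGAACA was found in 4 of the 9 windows, against 19% of all windows, and CCACCC in 3 of the 9, against 31.5% of all. Trim54 held 3 matches to CCACCC, as did the first window of Nedd4, and Trim63 held 0. The full glucocorticoid receptor palindrome was found, as an exact match, in 0 of the 9 and in 0.00913% of all windows. The Trim63 window came close to it. Before the marked arm, at the spacing of the palindrome, its bases match the other arm in all but the first letter. Such near matches were not counted in the other windows, so this one has no background to be read against. The E-box CANNTG, which myogenic factors bind and which is left in lower case above, was found in 6 of the 9 and in 72.3% of all windows. A match is only a match of letters in these windows.

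Klf15 itself was read first, as a check of the labels. It stood at 35.2, 28.4 and 30.5 FPKM across MyoCre 1 to 3, with 2.22, 21.7 and 5.32 FPKM in K15SKO 1 to 3. It was thus lower in all 3 K15SKO libraries, but K15SKO 2 kept 69.3% of the MyoCre mean. The log2 difference was −2.06 (SE 0.66, limma adjusted p = 0.273), and by exact permutation, two-sided, p was 0.1, a value that 3 against 3 libraries cannot go below.

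The K15SKO libraries also differed in their tissue markers. The summed level of 12 skeletal muscle markers was 53925 to 63239 FPKM in MyoCre, and 38502, 39157 and 62305 FPKM in K15SKO 1 to 3; 0 of the 12 were at 0 in any library. Of these 12, Des alone stood higher in K15SKO without overlap and Myl1 alone lower. Most of the sum came from Tnnc2, Mylpf, Tnni2, Myl1 and Actn3, which are genes of fast fibres, so a low sum need not mean less muscle. The summed level of 10 liver markers was 13.8 to 25.8 FPKM in MyoCre and 71.3, 5232 and 15.4 FPKM in K15SKO 1 to 3, with Alb at 2203 FPKM in K15SKO 2; 9 of the 10 stood higher in K15SKO without overlap, and 1 to 4 of them were at 0 in a MyoCre library. The 11 macrophage markers summed to 45.2 to 54.1 FPKM in MyoCre and 379, 213 and 42.0 FPKM in K15SKO 1 to 3, and 10 markers of denervated or regenerating muscle to 35.4 to 48.3 FPKM and 311, 196 and 46.6 FPKM. Without overlap, 1 of the 11 macrophage markers and 8 of the 10 denervation or regeneration markers stood higher. Over all genes tested, 13.4% stood higher and 11.3% lower without overlap, the shares beside which the counts of each list here are to be read. The 10 adipocyte markers summed to 1139 to 1971 FPKM in MyoCre and 849, 633 and 1101 FPKM in K15SKO, with 8 of the 10 lower without overlap. The 10 slow fibre markers summed to 135 to 393 FPKM and 1104, 509 and 1350 FPKM, with 4 higher without overlap. Endothelial markers (8) summed to 66.7 to 85.0 FPKM and 45.5 to 96.2 FPKM, fibroblast markers (7) to 177 to 201 FPKM and 162 to 332 FPKM, and erythrocyte markers (5) to 95.7 to 598 FPKM and 75.4 to 467 FPKM. The 8 lymphocyte or neutrophil markers summed to under 1 FPKM in each library but K15SKO 1, at 2.36 FPKM. In bulk tissue, fewer cells of a type and less RNA per cell cannot be told apart. The part these markers play in the levels of the ligases was not tested.

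No ligase passed limma's test over all genes. Of the 11607 genes tested, 6 passed an adjusted p of 0.05 (0.0517%), 2 of them higher (0.0172%) and 4 lower (0.0345%), and 0 of the 9 ligases did in either direction. At an unadjusted p under 0.05, Fbxo32 and Traf6 were lower, where 8.12% of all genes were lower, and 0 of 9 were higher, where 8.43% were. Fbxo32 and Traf6 were also the 2 ligases whose groups did not overlap, both lower in K15SKO, which held for 11.3% of all genes. The median log2 difference was −0.25 over the 9 ligases and −0.02 over all genes tested, and 7 of the 9 were below 0, as were 52% of all genes. These differences are on the log2(FPKM + 1) scale, which understates the change of low genes.

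**Figure D1:**
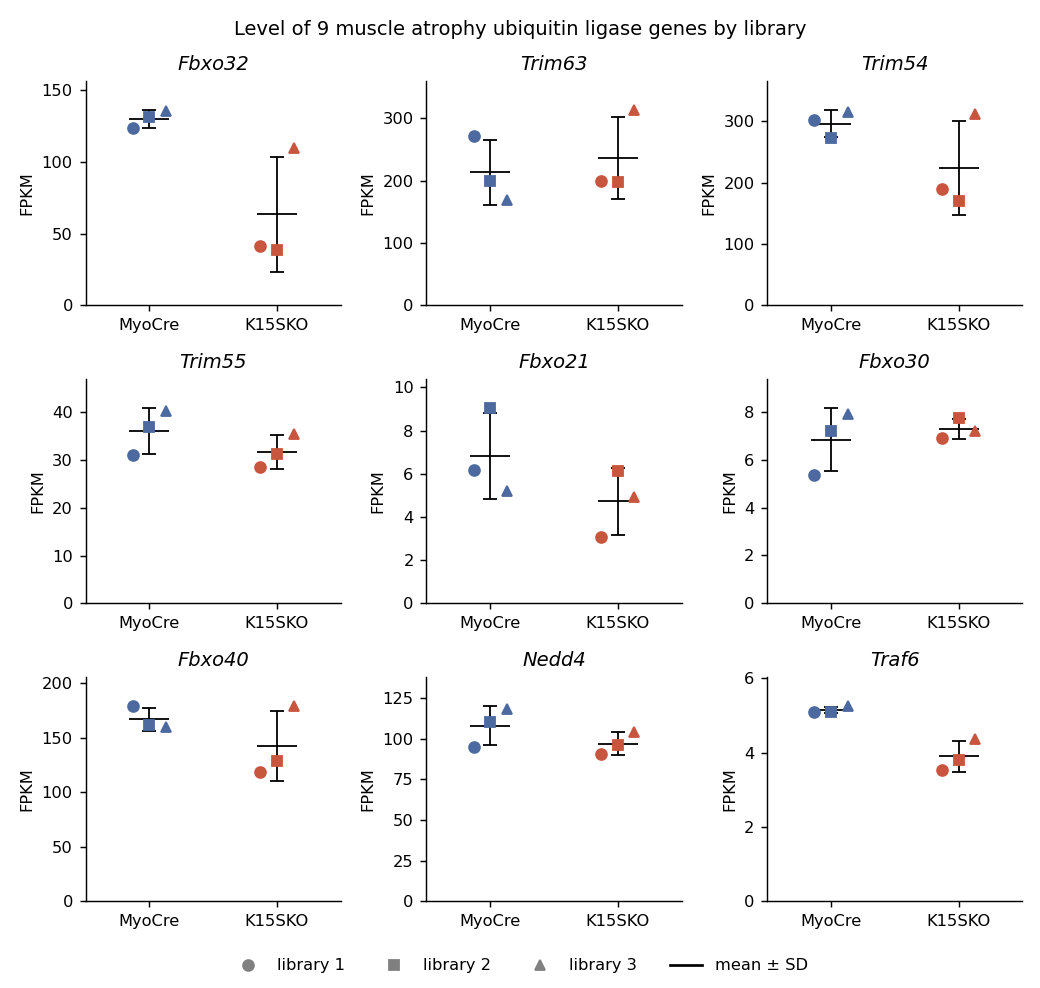
FPKM of the 9 ligase genes in each library (points; shape gives the library number), with the mean and SD of each group in black, n = 3 each. Fbxo32 and Traf6 are the 2 genes whose K15SKO points all lie below the MyoCre points, and the triangle of K15SKO 3 lies near or among the MyoCre points for most genes.

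Among the F-box receptors, Fbxo32 differed most. Fbxo32 encodes atrogin-1, which targets the myogenic factor MyoD and the translation factor eIF3f. The gene (ENSMUSG00000022358.6) lies on chromosome 15 from 58175879 to 58214932 on the minus strand of GRCm38, the mm10 assembly. It stood at 124, 131 and 135 FPKM across MyoCre 1 to 3, with 41.8, 38.9 and 110 FPKM in K15SKO 1 to 3. The MyoCre libraries lay within a narrow band, K15SKO 1 and 2 were far below it, and K15SKO 3 was just below it. K15SKO 1 kept 32.1% of the MyoCre mean, K15SKO 2 slightly less and K15SKO 3 84.3%. The group means were 63.4 ± 40.0 against 130 ± 6.02 FPKM (SD, 3 libraries each), and the log2 difference was −1.19 (SE 0.39, limma adjusted p = 0.275). The exact permutation test gave p = 0.1. The order of the K15SKO libraries was not that of Klf15. K15SKO 2, with the most Klf15, had the least Fbxo32, and K15SKO 3 had the most Fbxo32 with Klf15 at 17.0% of the MyoCre mean. K15SKO 2 was also the library with liver markers at 5232 FPKM. Which cells gave its Klf15 was not tested, so this order need not be that of Klf15 in muscle fibres. Ranked within its library, Fbxo32 was above 95.5% to 95.8% of the tested genes in MyoCre and above 86.7%, 85.4% and 94.5% in K15SKO 1 to 3.

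Fbxo40 encodes a muscle F-box protein that targets the insulin receptor substrate Irs1, and its gene lies on chromosome 16 from 36963460 to 36990467 (minus strand, ENSMUSG00000047746.14). It stood at 179, 162 and 160 FPKM across MyoCre 1 to 3, with 119, 129 and 179 FPKM in K15SKO 1 to 3. K15SKO 1 and 2 were below every MyoCre library, while K15SKO 3 was level with the highest of them. The log2 difference was −0.25 (SE 0.18, limma adjusted p = 0.447). The gene of its substrate, Irs1, was itself at 19.1, 9.63 and 36.4 FPKM across MyoCre 1 to 3, with 7.73, 7.45 and 7.99 FPKM in K15SKO 1 to 3, lower without overlap and with little spread in K15SKO (limma adjusted p = 0.280).

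Fbxo21 and Fbxo30 were low-level transcripts. Fbxo21, the FoxO-dependent ligase also called SMART, lies on chromosome 5 from 117976730 to 118010201 (plus strand, ENSMUSG00000032898.9). It stood at 6.18, 9.03 and 5.22 FPKM across the MyoCre libraries, with 3.08, 6.15 and 4.94 FPKM in K15SKO 1 to 3. The groups overlapped through K15SKO 2, and K15SKO 1 was the lowest library; the log2 difference was −0.46 (SE 0.26, limma adjusted p = 0.378). Fbxo30, or MUSA1, a ligase restrained by BMP signalling, lies on chromosome 10 from 11281330 to 11298052 (plus strand, ENSMUSG00000047648.13). It stood at 5.35, 7.21 and 7.90 FPKM across the MyoCre libraries, with 6.90, 7.72 and 7.18 FPKM in K15SKO. All 3 K15SKO values lay inside the MyoCre range, which makes Fbxo30 the one ligase of which this holds. Its log2 difference was 0.09 (SE 0.14, limma adjusted p = 0.711), and turned to −0.05 without MyoCre 1.

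The MuRF ligases are RING proteins of the sarcomere, and they did not stand alike. Trim63 encodes MuRF1, which binds titin and targets thick filament proteins, and its gene lies on chromosome 4 from 134315120 to 134329629 (plus strand, ENSMUSG00000028834.13). It stood at 271, 200 and 169 FPKM across MyoCre 1 to 3, with 199, 198 and 313 FPKM in K15SKO 1 to 3. The groups overlapped, with K15SKO 1 and 2 in the middle of the MyoCre range and K15SKO 3 above all other libraries. The log2 difference was 0.14 (SE 0.25, limma adjusted p = 0.750). Its sign turned without MyoCre 3 (−0.011), without K15SKO 3 (−0.08) and with libraries weighted by their fit (−0.10), so the data give Trim63 no direction.

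Trim54 encodes MuRF3, which binds microtubules and sits at the Z disc, and its gene lies on chromosome 5 from 31116712 to 31137630 (plus strand, ENSMUSG00000062077.14). It was the highest of the ligases in MyoCre, at 302, 272 and 314 FPKM, and stood at 190, 170 and 311 FPKM in K15SKO 1 to 3. K15SKO 1 and 2 were well below every MyoCre library and K15SKO 3 was among them. The log2 difference was −0.45 (SE 0.24, limma adjusted p = 0.356). Trim55, which encodes MuRF2, another titin-binding member, lies on chromosome 3 from 19644474 to 19692421 (plus strand, ENSMUSG00000060913.6). It stood at 30.9, 36.9 and 40.3 FPKM across the MyoCre libraries, with 28.4, 31.2 and 35.4 FPKM in K15SKO. K15SKO 1 alone lay below the MyoCre range, and the log2 difference was −0.18 (SE 0.14, limma adjusted p = 0.486).

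The last pair are a HECT ligase and a signalling ligase. Nedd4, which targets membrane proteins through adaptors, lies on chromosome 9 from 72662346 to 72749852 (plus strand, ENSMUSG00000032216.14). It stood at 94.9, 111 and 119 FPKM across the MyoCre libraries, with 90.4, 96.4 and 104 FPKM in K15SKO 1 to 3, with a log2 difference of −0.15 (SE 0.13, limma adjusted p = 0.520). The 6 libraries stood in the same order for Nedd4 as for Trim55, from K15SKO 1 at the bottom to MyoCre 3 at the top. Traf6, which builds the ubiquitin chains that activate the kinase Tak1 below cytokine and Toll-like receptors, lies on chromosome 2 from 101678429 to 101701669 (plus strand, ENSMUSG00000027164.8). It stood at 5.10, 5.10 and 5.25 FPKM across the MyoCre libraries, with 3.54, 3.80 and 4.37 FPKM in K15SKO 1 to 3. The MyoCre values were nearly equal and every K15SKO value was below them, at 68.8%, 73.9% and 84.8% of their mean. The group means were 3.90 ± 0.420 against 5.15 ± 0.0884 FPKM (SD, 3 libraries each), and the log2 difference was −0.33 (SE 0.10, limma adjusted p = 0.272, exact permutation p = 0.1).

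In MyoCre the order of the mean levels, per length, was Trim54 (296 ± 21.6 FPKM), Trim63 (213 ± 52.0), Fbxo40 (167 ± 10.5), Fbxo32 (130 ± 6.02), Nedd4 (108 ± 12.0), Trim55 (36.0 ± 4.74), Fbxo30 (6.82 ± 1.32), Fbxo21 (6.81 ± 1.99) and Traf6 (5.15 ± 0.0884). The ranges of Trim63 and Fbxo40 overlapped, although Trim63 was the higher of the pair within each of the 3 libraries. Fbxo21 overlapped both Fbxo30 and Traf6 and was above each of them in 2 of 3 libraries, so its place in the order is not set beyond the spread. In K15SKO, Trim63 (237 ± 65.9 FPKM) came before Trim54 (224 ± 76.4), then Fbxo40 (142 ± 32.2), Nedd4 (97.0 ± 6.99), Fbxo32 (63.4 ± 40.0), Trim55 (31.6 ± 3.50), Fbxo30 (7.27 ± 0.415), Fbxo21 (4.73 ± 1.54) and Traf6 (3.90 ± 0.420). There the ranges of Trim63 and Trim54, and of Trim54 and Fbxo40, overlapped, but within each of the 3 libraries Trim63 was above Trim54 and Trim54 above Fbxo40. Trim54 was above Trim63 in 3 of 3 MyoCre libraries and below it in 3 of 3 K15SKO libraries. Nedd4 and Fbxo32, and Fbxo21 and Traf6, also overlapped and did not keep 1 order within the K15SKO libraries. Fbxo32 stood above Nedd4 in every MyoCre library and below it in K15SKO 1 and 2.

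**Figure D2:**
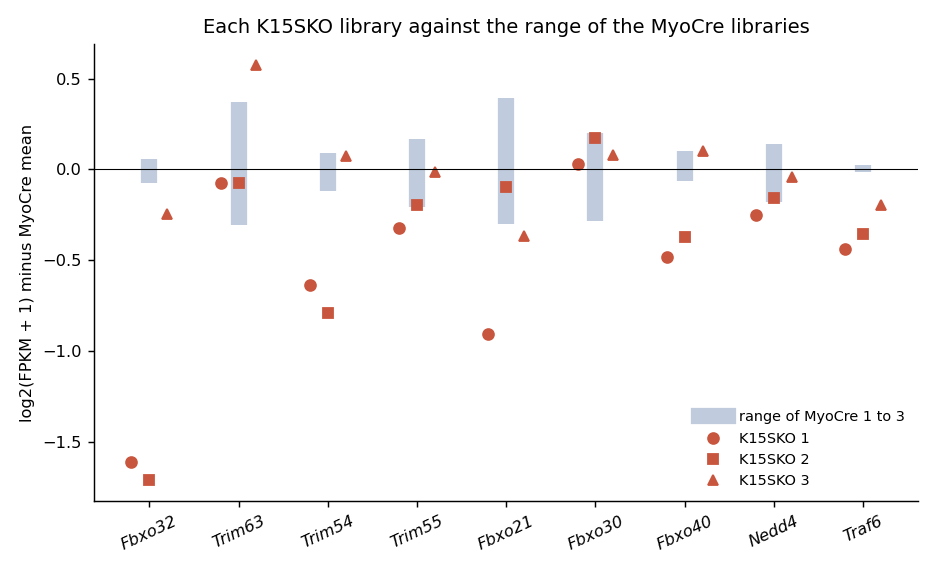
Level of each ligase in K15SKO 1 to 3 (red points) as the difference from the MyoCre mean on the log2(FPKM + 1) scale, with the range of the 3 MyoCre libraries as blue bars. K15SKO 1 and 2 lie below the bars for Fbxo32, Trim54, Fbxo40 and Traf6, and K15SKO 3 lies lower than the bar for Fbxo32, Fbxo21 and Traf6.

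By correlation over all genes, K15SKO 3 was nearer to MyoCre than K15SKO 1 and 2 were. K15SKO 1 and 2 were both below every MyoCre library for 4 of the 9 ligases (Fbxo32, Trim54, Fbxo40 and Traf6), which held for 34.4% of all genes. Of these, Trim54 alone had K15SKO 3 inside the MyoCre range, a pattern of 13.6% of all genes. K15SKO 3 was higher than K15SKO 1 in 9 of 9 ligases, where 56.4% of all genes were, and higher than K15SKO 2 in 7 of 9, where 58.4% were. Its summed FPKM was also the highest of the K15SKO libraries, at 466756 against 401505 and 396375, and the part of this in the counts was not tested. Over all tested genes K15SKO 3 correlated at 0.968 to 0.975 with the MyoCre libraries and at 0.942 and 0.880 with K15SKO 1 and 2 (Pearson, across genes, which are not independent replicates). K15SKO 1 and 2 correlated with MyoCre at 0.928 to 0.936 and 0.870 to 0.880. With each other they correlated at 0.915. That was the highest value of K15SKO 2 with any library, but the lowest of K15SKO 1 with any library. K15SKO 2, the library with the high liver markers, correlated at 0.870 to 0.880 with every library but K15SKO 1. This measure therefore does not settle whether K15SKO 1 and 2 form a pair. With K15SKO 3 left out, for which the labels offer no reason, limma called 4 of the 9 lower and 0 higher, where 12.8% of all genes were called lower and 10.8% higher. These were Fbxo32 (−1.66, SE 0.09, limma adjusted p = 0.00181), Trim54 (−0.71, SE 0.10, adjusted p = 0.0145), Fbxo40 (−0.43, SE 0.09, adjusted p = 0.0308) and Traf6 (−0.40, SE 0.08, adjusted p = 0.0298). Over all alternatives tried, limma's adjusted p ran from 0.00181 to 0.581 for Fbxo32, 0.0145 to 0.642 for Trim54, 0.0308 to 0.939 for Fbxo40 and 0.0298 to 0.648 for Traf6. With each library weighted by its fit (0.200 for K15SKO 3, 0.596 for K15SKO 1 and over 1 for the other 4), limma called Fbxo32, Trim54 and Traf6 lower, 3 of the 9, where 9.94% of all genes were called lower and 10.7% higher. Without K15SKO 3 the K15SKO arm holds 2 libraries, and these are the 2 with the low sum of muscle markers and the high macrophage and regeneration markers given above.

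**Figure D3:**
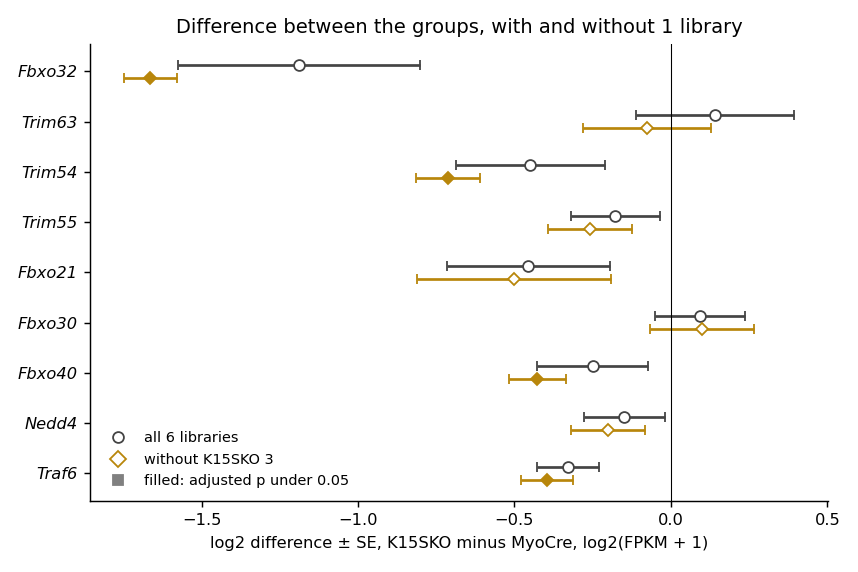
Log2 difference between K15SKO and MyoCre for each ligase with its standard error (bars), from all 6 libraries (circles) and without K15SKO 3 (diamonds); filled symbols passed a limma adjusted p of 0.05. Without K15SKO 3 the 4 filled diamonds are Fbxo32, Trim54, Fbxo40 and Traf6, and no circle is filled.

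Because the summed skeletal muscle markers were low in K15SKO 1 and 2, the ligases were also rescaled. They were set against the geometric mean of those 12 markers, a choice made after seeing the data. The 12 did not move alike. Actn3 was at 1404 and 2063 FPKM in K15SKO 1 and 2, against 2925 to 3947 in MyoCre. Des went the other way, at 2376 and 2018 against 1005 to 1191 FPKM, and Neb, at 362 and 350, lay inside its MyoCre range. The rescaling thus follows the mix of markers used, fast fibre genes among them, not the amount of muscle alone. On this scale the median of all tested genes moved to 0.17, from −0.02, and limma called 2 genes higher and 2 lower, in place of 2 and 4. Fbxo32 then stood at 121, 133 and 108 across MyoCre 1 to 3, with 53.8, 48.0 and 87.0 in K15SKO 1 to 3, in FPKM rescaled by the markers. All 3 K15SKO values were still below the MyoCre values, and the log2 difference was −0.97 (limma adjusted p = 0.528), or −1.15 relative to the median of all genes. Trim54 also had all 3 K15SKO values below MyoCre, at 245, 210 and 247 against 295, 276 and 252 rescaled FPKM, but its log2 difference was −0.23 (limma adjusted p = 0.534) in place of −0.45. Before the rescaling its groups overlapped, and after it K15SKO 3 (247) lay close to MyoCre 3 (252). Fbxo40 lay within the MyoCre range in all 3 K15SKO libraries, with a log2 difference of −0.03. Traf6 had 1 of 3 K15SKO values below MyoCre, Fbxo21 had 2 of 3 below, and Fbxo30 had 2 of 3 above. The shares of all genes with such patterns on this scale were not counted, so these counts have no background to be read against. The values of Trim55 and Nedd4 were 0.04 and 0.07, with the sign turned, though both stay below the median of all genes. Trim63 came to 256, 245 and 248 rescaled FPKM across K15SKO 1 to 3, compared with 265, 203 and 136 in MyoCre.

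Ratios between ligases of the same library do not depend on the scaling of libraries. The ratio of Fbxo32 to Trim63 was 0.456, 0.656 and 0.800 across MyoCre 1 to 3, with 0.210, 0.196 and 0.351 in K15SKO 1 to 3. The groups did not overlap, and K15SKO 3 lay between the other K15SKO libraries and MyoCre. The log2 ratio differed by −1.35, with an exact two-sided permutation p of 0.1, the smallest possible. The ratio of Trim54 to Trim63 was 1.11, 1.36 and 1.85 in MyoCre and 0.956, 0.858 and 0.996 in K15SKO, again without overlap (log2 difference −0.59, exact permutation p = 0.1). Both ratios were picked after their values were seen, and their adjusted p over the 2 is 0.1. Of the summed FPKM of the 9 ligases, Fbxo32 made up 12.1% to 14.2% in MyoCre and 6.13%, 5.72% and 10.3% in K15SKO 1 to 3. Trim63 made up 17.7% to 26.6% in MyoCre and 29.1%, 29.1% and 29.3% in K15SKO.

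The genes most like Fbxo32 over the 6 libraries, by Pearson's r of log2(FPKM + 1) among 6356 genes with a mean of at least 5 FPKM, were Tcp11l2, Nup153, Pla2g16, Asb14 and Sos2, with r from 0.996 to 0.997. Such likeness was common, since 15.4% of these genes had r over 0.9 with Fbxo32. Asb14, a substrate receptor of cullin 5 ligases, had a difference nearly as large as Fbxo32, at 92.0, 90.5 and 97.8 FPKM in MyoCre and 35.2, 36.7 and 85.7 FPKM in K15SKO 1 to 3. Trim63 had few genes like it, with 0.189% of genes at r over 0.9. The first 5 were Arrdc2, Srsf2, Kctd6, Usp2 and Lrrc30, with r from 0.929 to 0.956. Arrdc2 stood at 40.4, 23.8 and 10.3 FPKM across the MyoCre libraries, with 14.1, 11.9 and 94.8 FPKM in K15SKO, so MyoCre 1 and K15SKO 3 were its highest libraries, as they were for Trim63. Usp2, a deubiquitinase, had the same pair on top, at 100 FPKM in MyoCre 1 and 116 FPKM in K15SKO 3 against 64.2 to 87.5 FPKM in the other 4 libraries. These correlations are descriptions over 6 libraries that share groups and tissue makeup.

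Other genes of the ubiquitin pathway were read from lists, and 0 genes of any list passed limma's test over all genes with all 6 libraries in the fit. Ubiquitin, E1 and E2 genes had a median log2 difference of −0.10 over 27 tested, beside −0.02 over all genes. Of these, 3 were higher and 3 lower without overlap (13.4% and 11.3% of all genes). At limma's unadjusted p under 0.05, 2 were higher and 0 lower (8.43% and 8.12% of all genes). Ube2g2, an E2 of endoplasmic reticulum degradation, stood at 82.2 ± 11.3 against 59.2 ± 3.11 FPKM, and Rps27a, a gene of ubiquitin fused to a ribosomal protein, at 7.69 ± 1.06 against 4.81 ± 1.35 FPKM. Ube2b, an E2 known from muscle wasting, was at 263, 310 and 400 FPKM across K15SKO 1 to 3, compared with 422, 460 and 408 FPKM in MyoCre, and Ube2d1 at 163 ± 26.3 against 208 ± 17.7 FPKM (SD, n = 3 each).

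The SCF and cullin core had a median of 0.06 over 16 tested. Of the 16, 2 were higher and 1 lower without overlap (13.4% and 11.3% of all genes). At limma's unadjusted p under 0.05, 2 were higher and 2 lower (8.43% and 8.12% of all genes). Ube2m and Nedd8, the E2 and the modifier that switch cullins on, were the 2 higher without overlap. They stood at 98.0 ± 10.7 against 70.5 ± 1.61 FPKM and 109 ± 6.01 against 90.0 ± 2.11 FPKM (limma adjusted p = 0.269 and 0.287). The scaffold Cul2 was at 18.4 ± 1.69 against 22.7 ± 1.18 FPKM, and Cul3 at 65.1, 77.6 and 115 FPKM across K15SKO 1 to 3, compared with 112, 125 and 135 FPKM. The direct partners of the F-box ligases, named for their role after their values were seen, were Skp1a at 188 ± 12.1 against 187 ± 12.9 FPKM, Cul1 at 29.4 ± 4.96 against 35.5 ± 2.58 FPKM and Rbx1 at 42.0 ± 4.70 against 45.7 ± 1.67 FPKM, all with overlap.

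Other ligases known in muscle had a median of −0.25 over 37 tested, the same as the 9 ligases. Of the 37, 12 were lower and 5 higher without overlap (11.3% and 13.4% of all genes). At limma's unadjusted p under 0.05, 11 were lower and 5 higher (8.12% and 8.43% of all genes). Asb5 and Asb2, receptors of cullin 5 ligases, stood at 153 ± 61.6 against 290 ± 23.6 FPKM and 217 ± 85.7 against 369 ± 29.5 FPKM, and Smurf2, a HECT ligase of TGF-beta signalling, at 6.41 ± 0.848 against 9.13 ± 0.931 FPKM. Rnf115 went the other way, at 83.4 ± 13.8 against 57.0 ± 7.39 FPKM (SD over 3 libraries a group; limma gave these 4 adjusted p-values of 0.270 to 0.273). Without K15SKO 3, limma called 17 of the 37 lower and 4 higher, where 12.8% of all genes were called lower and 10.8% higher.

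**Figure D4:**
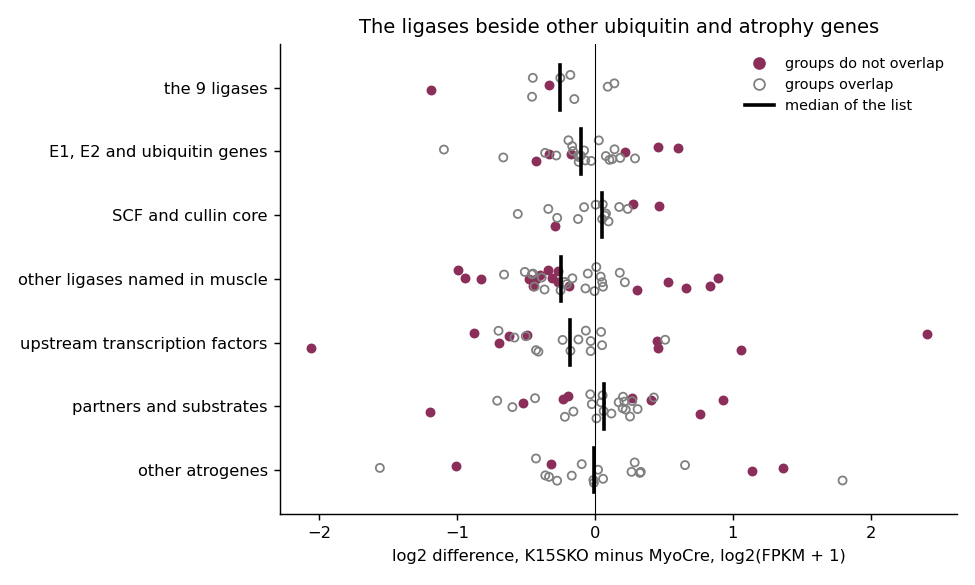
Log2 difference between K15SKO and MyoCre for the 9 ligases and for each tested gene of 6 lists (points), with filled points for genes whose groups do not overlap and black bars for the medians. The medians of the ligases and of other muscle ligases are both −0.25, and those of the other 5 lists lie from −0.18 to 0.06.

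Transcription factors that act on atrophy genes had a median of −0.18 over 23 tested, Klf15 among them. Of the 23, 5 were lower and 4 higher without overlap (11.3% and 13.4% of all genes). At limma's unadjusted p under 0.05, 6 were lower and 3 higher (8.12% and 8.43% of all genes). Klf15, the targeted gene, was among the lower genes in both counts. Nr3c1, the glucocorticoid receptor, stood at 19.6, 23.0 and 29.4 FPKM across the MyoCre libraries, with 11.5, 11.4 and 14.7 FPKM in K15SKO 1 to 3 (log2 difference −0.88, SE 0.18, limma adjusted p = 0.248). Every K15SKO library was below MyoCre, K15SKO 3 included. Smad3, which carries myostatin and TGF-beta signals, was likewise at 16.1, 17.2 and 17.7 FPKM against 25.1, 25.5 and 29.3 FPKM (adjusted p = 0.229 by limma). The 4 FoxO genes of the list, a family that drives Fbxo32 and Trim63 in wasting muscle, are named here after their values were seen, and they did not stand alike. Foxo1 stood at 1.92, 2.00 and 3.50 FPKM across K15SKO 1 to 3, compared with 4.22, 3.68 and 5.88 FPKM, without overlap, and Foxo3 at 4.16, 4.55 and 6.63 FPKM against 7.44, 6.22 and 7.40 FPKM, with overlap. Foxo4 was at 30.5, 38.2 and 88.0 FPKM in the K15SKO libraries and 69.1, 62.1 and 82.6 FPKM in the MyoCre libraries, also with overlap. Foxo6 stood higher without overlap, at 3.54, 2.02 and 1.82 FPKM beside 1.33, 1.60 and 1.45 FPKM (log2 difference 0.46, limma adjusted p = 0.312). The strandedness of the libraries is not given, so whether its reads were told apart from those of its antisense partner Foxo6os is not known. Myog, a factor of muscle differentiation and denervation that activates both ligase genes and is also among the denervation markers, was at 31.9, 27.3 and 3.90 FPKM across K15SKO 1 to 3, compared with 2.36, 2.20 and 1.84 FPKM. Myog was thus highest in the same 2 libraries in which Fbxo32 was lowest. Stat3, of cytokine signalling, stood at 17.1 ± 2.25 against 12.2 ± 1.61 FPKM.

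Partners and substrates of the ligases had a median of 0.06 over 29 tested. Of the 29, 4 were higher and 4 lower without overlap (13.4% and 11.3% of all genes). At limma's unadjusted p under 0.05, 2 were higher and 2 lower (8.43% and 8.12% of all genes). Mybpc1 and Des, a thick filament protein and the intermediate filament desmin, stood higher, at 513 ± 105 against 270 ± 66.4 FPKM and 1944 ± 474 against 1127 ± 106 FPKM. Myl1, a fast myosin light chain, stood lower, at 6728 ± 1383 against 9565 ± 719 FPKM. Other atrogenes, the genes that commonly change in wasting muscle, had a median of −0.01 over 21 tested. Against the same shares of all genes, 2 of the 21 were higher and 2 lower without overlap. At limma's unadjusted p under 0.05, 1 was higher and 1 lower. Cdkn1a, a cell cycle inhibitor, was at 20.5, 13.9 and 10.3 FPKM across K15SKO 1 to 3, compared with 7.61, 5.22 and 5.28 FPKM, and Mstn, myostatin, at 13.2, 16.5 and 26.9 FPKM against 33.8, 45.5 and 33.5 FPKM. Fbxo44 stood at 3.72 ± 0.436 against 4.90 ± 0.810 FPKM. Mt1, a metallothionein, was at 230, 74.3 and 35.6 FPKM against 35.4, 34.4 and 28.2 FPKM, so K15SKO 1 carried most of its difference.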

How the data were processed

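Total RNA of 6 mouse quadriceps samples was made into libraries with Illumina methods, per the labels' protocols; the sources used here do not give their strandedness. STAR, Cufflinks, Cuffdiff and mm10 were used, per the submitters' processing notes, with versions not given. The authors deposited FPKM, a unit read from these tools and from the values. Sums were 396375 to 466756 FPKM per library. Steps between values under 0.1 FPKM give depths of 0.742 to 1.57 relative to MyoCre 1 and say nothing of absolute depth, which is unknown; intervals for counting error cannot be set. Columns were matched by the sample descriptions, and 0 belonged to no sample.

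A mean of 1 FPKM or more was required of a gene. Values were put on the log2(FPKM + 1) scale and the groups compared two-sided by limma 3.58.1 (R 4.3.3), whose eBayes step followed the trend with level. P-values were adjusted by Benjamini and Hochberg over 11607 genes, with a threshold of 0.05. Tested on simulated data for this comparison over 11607 genes, the script found 61% of 100 genes set to a log2 difference of 1, 95% of 100 set to 2, and made 8 false calls. The simulated noise was independent between genes and between libraries. In the data K15SKO 3 moved the results of many genes together, so these rates need not hold for them. The members, lists, alternatives and naming rule were chosen with earlier results of these data known. The rule names the ligases, Klf15, up to 4 genes per list by smallest unadjusted p, and the 5 genes most like Fbxo32 and Trim63, leaving out names such as Gm with digits. The last 2 of 18 alternatives were added after seeing the data: leaving out genes at 0 in a whole group, and rescaling to muscle markers. Positions came from GENCODE M21 on GRCm38 by gene ID without its version; Fbxo32 alone had another version there. Antisense genes overlap Fbxo32 (Gm15943) and Trim54 (Gm15469), at up to 0.0798 and 0.875 FPKM. Tables used Python 3.11.15, scipy 1.17.1 and Biopython 1.88, and plots matplotlib 3.10.9.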

Additional observations from a re-analysis of the deposited data

How the results depend on the processing

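Over 18 alternatives, the log2 difference of Fbxo32 ran from −1.66 to −0.93 and that of Traf6 from −0.40 to −0.15, with the direction kept in each; Traf6 was not tested at a mean of at least 5 FPKM. Fbxo21, Fbxo40, Trim54 and Klf15 also kept their direction. With each library left out in turn, limma called 3 to 2743 genes, the most without K15SKO 3 and 3 without MyoCre 1 or MyoCre 2, and 0 to 4 ligases. It called 3 genes with no filter, 2398 with array weights and, against 1930 at an unadjusted p under 0.05, 0 without the 102 genes at 0 in a whole group, a setting chosen after seeing the data, as was the muscle-marker rescaling. With array weights it called 3 ligases: Fbxo32 (−1.55), Trim54 (−0.67) and Traf6 (−0.36). With a library left out, values ran from −1.66 to −0.93 for Fbxo32, −0.71 to −0.28 for Trim54, −0.43 to −0.14 for Fbxo40, −0.40 to −0.28 for Traf6, −0.076 to 0.33 for Trim63 and −0.049 to 0.19 for Fbxo30. Trim63 was −0.10 with array weights, −0.011 without MyoCre 3 and −0.076 without K15SKO 3, and Fbxo30 was −0.049 without MyoCre 1. Rescaled to the muscle markers, Trim55 was 0.038 and Nedd4 0.071. Array weights were lowest for K15SKO 3 (0.200) and next for K15SKO 1 (0.596); the cause of the moves was not tested. Rescaled to the muscle markers, Trim54 was −0.23 and Fbxo40 −0.03. With the replicate number as a block, limma called 3 genes and 0 ligases. The deviations of same-numbered libraries correlated at 0.0024, 0.085 and 0.094, not every library correlated best with its own number, and the labels do not say that numbers pair animals. Detection of differences under a log2 of 1 was not tested.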

Other observations

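A transcript inside Nedd4 differed more than Nedd4 did. Gm7265, an unclassified transcript of GENCODE M21 found on GRCm38 chromosome 9 between 72691549 and 72695050 (plus strand), lies within the span of Nedd4 and covers the second promoter window of that gene, which runs from 72693048 to 72693347. MyoCre 1 to 3 had 12.6, 17.5 and 17.9 FPKM of it, and K15SKO 1 to 3 had 7.48, 8.42 and 10.2 FPKM. Every K15SKO value was below every MyoCre value, K15SKO 3 included, with a log2 difference of −0.80 (SE 0.17, limma adjusted p = 0.248). It was singled out after its values were seen, and how reads were shared out between Gm7265 and Nedd4, which lie on the same strand, is not given in the labels. Fbxo32 and Klf15 ranked the K15SKO libraries differently: Klf15 was at 2.22, 21.7 and 5.32 FPKM in K15SKO 1 to 3, and Fbxo32 at 41.8, 38.9 and 110 FPKM. Which cells gave the Klf15 of K15SKO 2, the library with the high liver markers, was not tested.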
